A study of Homo sapiens with 6 samples.

Results

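H/ACA small nucleolar RNAs (gene names starting with SNORA) and small Cajal body RNAs (SCARNA) were described on 6 one-colour Agilent arrays hybridised with cap-selected RNA. The members were all probes for cell RNA whose gene name starts with either prefix. They numbered 125 genes and 152 of the 50599 probes on the array: 125 SNORA probes for 103 genes and 27 SCARNA probes for 22 genes. Each is a 60-base probe printed once. The RNA came from MOLT-4, an established line of human T-cell acute lymphoblastic leukemia. It had been immunoprecipitated with an antibody to the m3G/m7G cap. The 3 mock samples carried an empty vector and the 3 NUDT16 samples a vector for Nudt16, a decapping enzyme. All 6 samples are this single cell line, neither age nor time after transfection is given in the sources used here, and total RNA that was not cap-selected was not analysed here. Nothing in the labels says that replicates came from separate cultures, so the p-values measure only the spread between these samples.

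H/ACA RNAs fold into hairpins and end a few bases after an ACA box. Each binds dyskerin (DKC1), NOP10, NHP2 and GAR1 and guides the conversion of uridine to pseudouridine in ribosomal RNA. Small Cajal body RNAs guide the modification of spliceosomal RNAs. Some have the H/ACA fold, some carry the C and D boxes of methylation guides, and some join both. Most members are cut out of introns and so lose the m7G cap of their host transcript. A few, SCARNA2 and SCARNA17 among them, are transcribed from their own promoters, and caps of such small RNAs can be hypermethylated by TGS1. Trimming of the 3' end by PARN and related enzymes finishes H/ACA RNAs. NUDT16 was first described as a protein that binds and decaps a nucleolar RNA of the C/D class.

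Coordinates are hg19 positions of the probes as the files give them, and no annotation of that build was used, so exon or intron is not stated. The probe sequences show what was measured. Many probes for H/ACA RNAs end with the letters of an ACA box and 3 more bases. Probe ends were not compared with transcript ends. These 4 are shown because their results are given below, and the capitals mark ACA when exactly 3 bases follow it at the 3' end of the probe:

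SNORA27 (chr13:27829604-27829663, plus strand): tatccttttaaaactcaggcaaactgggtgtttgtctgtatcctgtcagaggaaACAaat

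SNORA54 (chr11:2985001-2985060, minus strand): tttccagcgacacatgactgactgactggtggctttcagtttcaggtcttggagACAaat

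SNORA33 (chr6:133138431-133138490, plus strand): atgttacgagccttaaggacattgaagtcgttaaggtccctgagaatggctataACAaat

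SCARNA22 (chr4:1976428-1976487, plus strand): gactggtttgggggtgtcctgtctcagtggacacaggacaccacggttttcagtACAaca

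The motif ACANNN at the 3' end, read on the probe strand only, was present in 46 of 102 SNORA probes with a RefSeq accession (45.1%). It was present in 10 of 13 RefSeq probes for SCARNAs of the H/ACA fold (76.9%) and in 1 of 8 for SCARNAs with C and D boxes or both folds (12.5%). SCARNA3 and SCARNA9L were assigned to neither group. Among all 50599 probes 1074 ended that way (2.12%), and among 203 probes for C/D small nucleolar RNAs (SNORD) 3 did (1.48%). Those are matches of letters and a description of where the probes lie. Probes for 3 other members with results below, SNORA4, SNORA6 and SNORA28, did not end that way and are printed in lower case:

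SNORA4 (chr3:186505479-186505538, plus strand): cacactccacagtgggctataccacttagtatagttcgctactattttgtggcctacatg

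SNORA6 (chr3:39449956-39450015, plus strand): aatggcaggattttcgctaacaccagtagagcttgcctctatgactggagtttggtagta

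SNORA28 (chr14:103804201-103804260, plus strand): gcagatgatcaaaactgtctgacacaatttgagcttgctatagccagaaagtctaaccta

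SCARNAs of the C/D kind are recognised by the D box, CTGA. The letters CTGA, on the probe strand, occurred in 7 of the 8 RefSeq probes for SCARNAs with C and D boxes or both folds (87.5%), in 94.1% of SNORD probes and in 29.4% of all probes. They are in capitals in these 3:

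SCARNA2 (chr1:109643171-109643230, plus strand): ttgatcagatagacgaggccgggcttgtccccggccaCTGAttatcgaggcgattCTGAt

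SCARNA9 (chr11:93454973-93455032, plus strand): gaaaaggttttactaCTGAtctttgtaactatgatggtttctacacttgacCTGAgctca

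SCARNA17 (chr18:47340748-47340807, plus strand): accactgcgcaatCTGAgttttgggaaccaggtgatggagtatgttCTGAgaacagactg

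RefSeq, through its GRCh38.p14 table, matched 124 of the 125 member probes that carry a RefSeq accession. The matched SNORA transcripts were 121 to 250 bases long with a median of 134. The SCARNA transcripts were 125 to 421 bases long with a median of 176. Median GC content of the RefSeq probes was 45% in both classes and 43.3% over all probes.

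The arrays differed in signal. Probes well above background made up 36.1% to 49.6% of all probes on 5 arrays and 13.6% on NUDT16 replicate 2. On that array the lowest normalised signal well above background was -3.52 on the log2 scale, against -8.07 to -7.05 on the other 5. Each of 3 slides held the mock and the NUDT16 array of one replicate number. The 2 NUDT16 probes were not well above background on any array, and whether the vector's transcript holds their sequences is not stated, so they check nothing here. The pseudogene NUDT16P1 has 2 probes. One was well above background on no array, and the other on none of the 3 mock arrays and on all 3 NUDT16 arrays. The level of the latter was at least 31.7-fold higher, where a mock array counts at its lowest signal well above background. That bound was not itself tested. The limma fit to the values as measured, with background signals on the mock arrays, gave a log2 difference of 6.91 (limma, adjusted p = 0.00155). Of 13 T-lineage marker genes, 13 were well above background on at least 1 array and 10 on all 6. Of the B-lineage list 3 of 5 genes were so on at least 1 array, of the myeloid list 1 of the 3 with a probe, of the erythroid list 1 of 2 and of the epithelial list 1 of 2, while MS4A1, PAX5, CSF1R, MPO, HBB and EPCAM were on none. LYZ, also on the myeloid list, was not analysed here.

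Most members gave a signal in cap-selected RNA. The numbers of SNORA probes well above background were 108, 103 and 110 of 125 on mock replicates 1 to 3 and 98, 55 and 110 on NUDT16 replicates 1 to 3. For SCARNA probes the numbers were 22, 22 and 25 of 27 with mock, and with NUDT16 they were 20, 12 and 24. NUDT16 replicate 2 was the low array for both classes, as it was for the whole array. On all 6 arrays 67 members (44.1%) were well above background, 55 SNORA and 12 SCARNA, against 13% of all probes. On no array were 12 members.

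**Figure D1:**
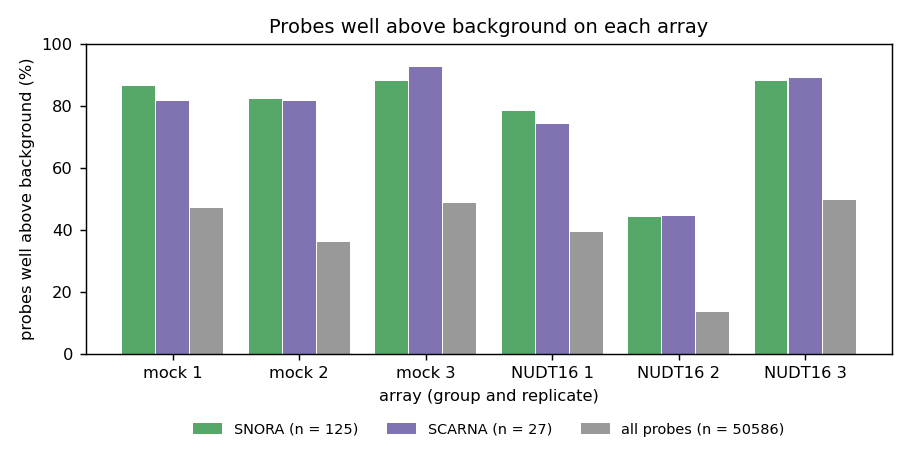
Bars give the percentage of probes well above background (y axis) on each array (x axis) for 125 SNORA probes, 27 SCARNA probes and all 50586 usable probes. Both member classes lie above all probes on each array, and NUDT16 replicate 2 is lowest for all 3, at 44%, 44.4% and 13.6%.

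A probe was tested if either group had it well above background on each of its 3 arrays. This kept 123 members (80.9%), 101 SNORA and 22 SCARNA, against 35.1% of all probes. All 123 passed on the 3 mock arrays (35% of all probes did), so the filter did not choose members by a high level in the NUDT16 group. It can keep members that are dim there: 56 of the 123 were not well above background on NUDT16 replicate 2. The 29 members not tested were 19 probes for ESTs or cDNAs and 10 RefSeq probes.

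The kind of probe went with detection. Of 125 RefSeq probes 115 were tested and 66 were well above background on all 6 arrays. Of 27 probes designed on an EST or cDNA with a SNORA or SCARNA name, 8 were tested and 1 was well above background on all 6 arrays. In 25 genes that had one probe of each kind, the RefSeq probe was well above background on more arrays in 20, on the same number in 4 and on fewer in 1. The exception was SCARNA15, with 1 array for the RefSeq probe and 4 for the other. In 20 of the 25 genes both probes mapped within 5 kb of each other, 10 on the same strand and 10 on opposite strands. Of the 10 on opposite strands, 8 EST or cDNA probes were well above background on no array, against 1 of the 10 on the same strand.

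In SNORA26 the RefSeq probe and the EST or cDNA probe share a run of 41 bases in opposite senses. They are printed because the 2 carry the same gene name on the array:

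SNORA26, RefSeq probe (chr4:53579467-53579526, plus strand): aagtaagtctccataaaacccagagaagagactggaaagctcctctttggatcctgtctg

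SNORA26, EST or cDNA probe: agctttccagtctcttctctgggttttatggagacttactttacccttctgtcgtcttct

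Levels are log2 signals after subtracting, for each array, the 75th percentile of the probes detected on all 6 arrays. Values are in the order of replicates 1 to 3, and they are compared between arrays for 1 probe, never between probes. The RefSeq probe of SNORA26 read -0.53, -0.80 and -0.28 with mock and -1.23, -0.37 and -0.82 with NUDT16. The opposite-sense probe read -6.28, -6.20 and -5.51 with mock and -7.21, -5.80 and -6.61 with NUDT16, where replicate 2 was not well above background. In both probes NUDT16 replicates 1 and 3 were below all mock arrays, replicate 2 was not, and the groups overlapped.

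Between groups, no member passed the test. The limma fit over all 17765 tested probes, NUDT16 minus mock, called 0 of 123 members at an adjusted p under 0.05, and 0.00563% of all tested probes (1 probe). At an unadjusted p under 0.05 it also gave 0 members, against 0.045% of all tested probes (8 probes). The smallest unadjusted p of a member was 0.14 and every member had an adjusted p of at least 0.999. With 3 against 3 arrays the exact permutation test cannot go below 0.1, and the smallest p among members was 0.2. No member had groups that did not overlap, against 0.31% of tested probes higher and 0.281% lower without overlap. The median standard error of a member's difference was 0.70, and in simulated data this design recovered 0% of probes shifted by 2 and 58.5% of probes shifted by 4 (log2). Changes of the size seen here were therefore not detectable by this test.

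With the replicate number, which is also the slide, as a block, the median standard error was 0.35. The limma fit with the block again called 0 of 123 members, with a smallest adjusted p of 0.467. At an unadjusted p under 0.05 it gave 8 members (6.50%), against 9.76% of all tested probes. In the higher direction these were 4, SNORA27, SNORA28, SNORA54 and SNORA70, against 0.816% of all tested probes. In the lower direction these were 4, SNORA4, SNORA6, SNORA33 and the EST or cDNA probe of SCARNA15, against 8.94%.

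The size of the differences was small beside the spread between replicates. In 123 of 123 members the range of the 3 replicate means exceeded the difference between groups, as it did in 16801 of 17765 probes. A replicate mean averages the mock and the NUDT16 array of one replicate number. Its range is therefore not the spread of the differences by pair. The median range was 1.55 and the median absolute difference 0.33 over members. A difference of at least 1 (log2) was seen in 5 members (4.07%), against 8.35% of tested probes. Only SNORA54 reached it in the higher direction (1.29% of probes) and 4 members in the lower (7.05% of probes).

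SNORA members had a median difference of 0.08 (57 above 0, 44 below) and SCARNA members one of -0.03 (9 above 0, 13 below), while the median of all tested probes was -0.11 and 43.2% were above 0. By pair of arrays with one replicate number, the SNORA medians were -0.13, 0.63 and -0.27 for replicates 1 to 3. The SCARNA medians were -0.08, 0.24 and -0.30, and those of all probes were -0.36, 0.09 and -0.06. In pair 2, whose NUDT16 array had the low signal, 78 of 101 SNORA probes were above 0. In pairs 1 and 3 it was 36 and 25. Among all 17765 tested probes the numbers above 0 were 4959, 9412 and 7881 in pairs 1 to 3. Without NUDT16 replicate 2 the median differences were -0.48 for SNORA and -0.57 for SCARNA. The median of all tested probes without that array is not given here. The part of the low signal on that array in these medians was not tested. With replicates 1 and 3 alone and the block, the medians were -0.23 for SNORA, -0.26 for SCARNA and -0.22 for all tested probes. Scaling moved all probes together: with the median over all probes as the scale the medians were -0.78 over all probes, -0.59 for SNORA and -0.71 for SCARNA.

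Over the members well above background on all 6 arrays, the SNORA median was 0.21 (38 of 55 above 0) and the SCARNA median was 0.05 (6 of 12 above 0). The median of all 6582 such probes was 0.16 (3902 above 0, 59.3%). Such probes had to be well above background on NUDT16 replicate 2, where the lowest such signal was -3.52. The set therefore leaves out probes that are low on that array. The SNORD probes, tested in 120 of 203 cases, had a median of -0.17. Higher in 3 of 3 pairs were 22 members (17.9%, against 15.9% of all tested probes), and lower in 3 of 3 pairs were 21 (17.1%, against 27.5%). Of these, 8 of the 22 and 19 of the 21 were not well above background on NUDT16 replicate 2. Among all tested members, 21 not well above background there still had a value above all 3 mock arrays.

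SNORA54 had the largest difference above 0 among the members. It read -2.58, -1.72 and -3.27 with mock and -1.36, -0.14 and -2.85 with NUDT16. NUDT16 replicate 2 was the highest array, NUDT16 replicate 3 lay among the mock arrays, and the groups overlapped. The difference was 1.07 with a standard error of 0.77 (limma, adjusted p = 0.999; exact permutation p = 0.3).

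SNORA27, which lies in the gene of ribosomal protein L21, read -2.86, -2.21 and -3.30 with mock. With NUDT16 it read -2.10, -0.75 and -2.64. Replicates 1 and 2 were above all mock arrays and replicate 3 was not. The difference was 0.96 with a standard error of 0.67 (limma, adjusted p = 0.999).

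SNORA28, in the EIF5 gene for a translation initiation factor, read -4.97, -3.79 and -4.90 with mock and -4.39, -2.33 and -4.32 with NUDT16. Each NUDT16 array was above its mock partner, by 0.59, 1.47 and 0.57, while mock replicate 2 was above 2 of the NUDT16 arrays. The difference was 0.88 with a standard error of 0.72.

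SNORA4, in the EIF4A2 gene for an RNA helicase of translation initiation, had the largest difference below 0 over all 6 arrays. It read -4.87, -3.35 and -2.74 with mock and -5.91, -5.59 and -3.17 with NUDT16. NUDT16 replicates 1 and 2 were below all mock arrays, and replicate 2 was not well above background. The difference was -1.23 with a standard error of 0.84 (limma, adjusted p = 0.999; exact permutation p = 0.3). On replicates 1 and 3 alone it was -0.73, nearer 0 than in several other members, among them SNORA75 (-0.91) and SNORA74A (-0.83).

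SNORA33, in the RPS12 gene, read -4.95, -3.79 and -3.10 with mock and -5.96, -5.79 and -3.64 with NUDT16. SNORA6, in the RPSA gene, read -3.50, -2.30 and -1.94 with mock and -4.22, -4.08 and -2.69 with NUDT16. In both, NUDT16 replicates 1 and 2 were below all mock arrays, replicate 3 was not, and replicate 2 was not well above background. The differences were -1.18 with a standard error of 0.77 for SNORA33 and -1.08 with a standard error of 0.68 for SNORA6.

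The other SNORA probes with the smallest p below 0 were SNORA8 (-0.83), SNORA13 (-0.74) and SNORA41 (-0.69), and all 3 were not well above background on NUDT16 replicate 2. SNORA8 had its difference mostly in pair 2, at -2.32, against 0.05 in pair 1 and -0.20 in pair 3. With replicates 1 and 3 alone and the block, the differences were -0.73 for SNORA4, -0.77 for SNORA33, -0.73 for SNORA6, -0.74 for SNORA41 and -0.58 for SNORA13. They were 0.82 for SNORA54, 0.71 for SNORA27 and 0.58 for SNORA28. That fit called 1 member (0.813%), the opposite-sense probe of SNORA26 (-1.02, limma adjusted p = 0.03), against 3.45% of all tested probes.

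SNORA27, SNORA28, SNORA54 and SNORA70 stayed above 0 under each alternative except no scaling, where 1 of the 4 did. SNORA4, SNORA6 and SNORA33 stayed below 0 under each alternative in which they were fitted. With normexp background correction, their median difference was -0.14 in place of -1.18.

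**Figure D2:**
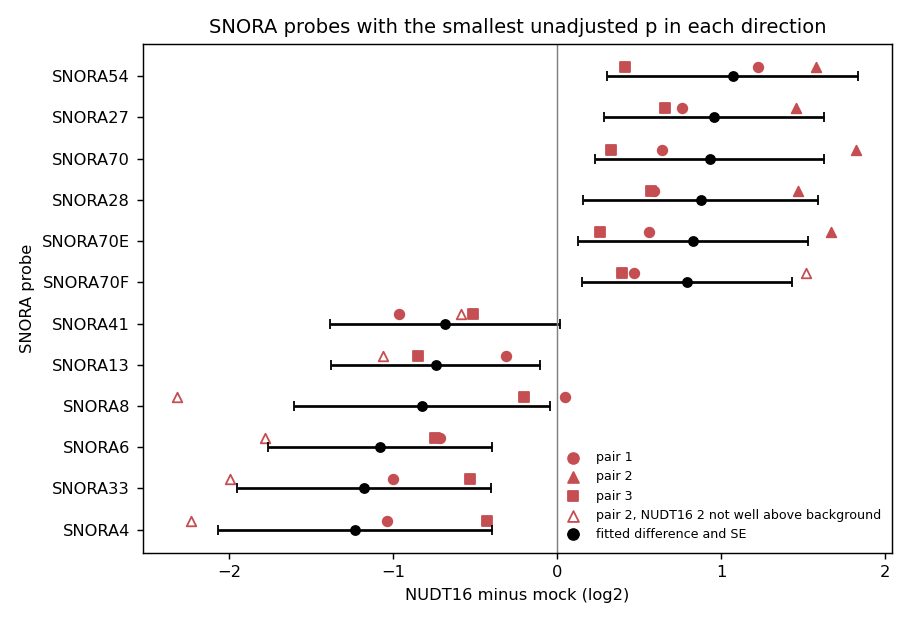
Fitted differences, NUDT16 minus mock on the log2 scale (x axis), with their standard errors for the 6 SNORA probes with the smallest unadjusted p in each direction (y axis); red points are the differences of the 3 array pairs. The fitted differences run from -1.23 for SNORA4 to 1.07 for SNORA54, pair 2 lies farthest from 0 in most, and open symbols mark an array not well above background.

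The SNORA70 family differed from the other members in how its arrays were ordered. Its 7 RefSeq probes are shown because they are alike in sequence, SNORA70G being the least like SNORA70. They may bind RNA of one another, which was not tested, so their values are not taken as independent. SNORA70 lies in the RPL10 gene for a ribosomal protein. Capitals in the other 6 mark runs of 12 or more bases that the SNORA70 probe also holds:

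SNORA70 (chrX:153628697-153628756, plus strand): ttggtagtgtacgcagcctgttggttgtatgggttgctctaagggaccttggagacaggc

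SNORA70B (chr2:61644396-61644455, minus strand): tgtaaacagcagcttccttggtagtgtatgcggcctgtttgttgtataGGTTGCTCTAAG

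SNORA70C (chr9:119943347-119943406, minus strand): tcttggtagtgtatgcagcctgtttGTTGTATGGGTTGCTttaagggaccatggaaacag

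SNORA70D (chr16:71732470-71732529, minus strand): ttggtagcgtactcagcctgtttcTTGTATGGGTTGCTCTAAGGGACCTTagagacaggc

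SNORA70E (chr11:82752520-82752579, minus strand): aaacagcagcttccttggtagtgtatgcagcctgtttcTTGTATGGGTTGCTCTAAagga

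SNORA70F (chr2:165544153-165544212, minus strand): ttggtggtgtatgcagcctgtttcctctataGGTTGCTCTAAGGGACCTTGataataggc

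SNORA70G (chr12:69021014-69021073, minus strand): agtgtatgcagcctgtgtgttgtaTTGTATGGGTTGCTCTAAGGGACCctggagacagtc

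Without gaps, over the best overlap of at least 40 bases, identity to the SNORA70 probe was 90.7% for SNORA70B, 91.4% for SNORA70C, 91.7% for SNORA70D and 91.3% for SNORA70E. It was 81.7% for SNORA70F and 65% for SNORA70G.

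SNORA70 itself read -2.36, -4.23 and -3.64 with mock and -1.72, -2.41 and -3.31 with NUDT16. Replicate 1 was the high array in both groups, and mock replicate 2 was the lowest of all 6. In all 7 family probes mock replicate 1 was the highest mock array, as it was in 3 of the other 116 tested members (2.59%), SNORA12, SNORA17 and the EST or cDNA probe of SNORA60. Among all tested probes it was the highest mock array in 32.7%. This order was noticed in the data and is given as a description.

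On NUDT16 replicate 2 only SNORA70 and SNORA70E were well above background, so the pair 2 values of the other 5 rest on background signals. The 7 family probes were higher in 3 of 3 pairs as measured, with differences of 0.35 (SNORA70B) to 0.93 (SNORA70), a median of 0.79 and an adjusted p of 0.999 each. The differences were 0.47 to 0.64 in pair 1 and 0.24 to 0.39 in pair 3. In pair 2 they were 1.82 for SNORA70 and 1.67 for SNORA70E. With no scaling 0 of the 7 were above 0. With the median over all probes as the scale, with the authors' deposited values and without NUDT16 replicate 1, it was 6 of 7, and under the other alternatives each fitted probe was above 0.

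**Figure D3:**
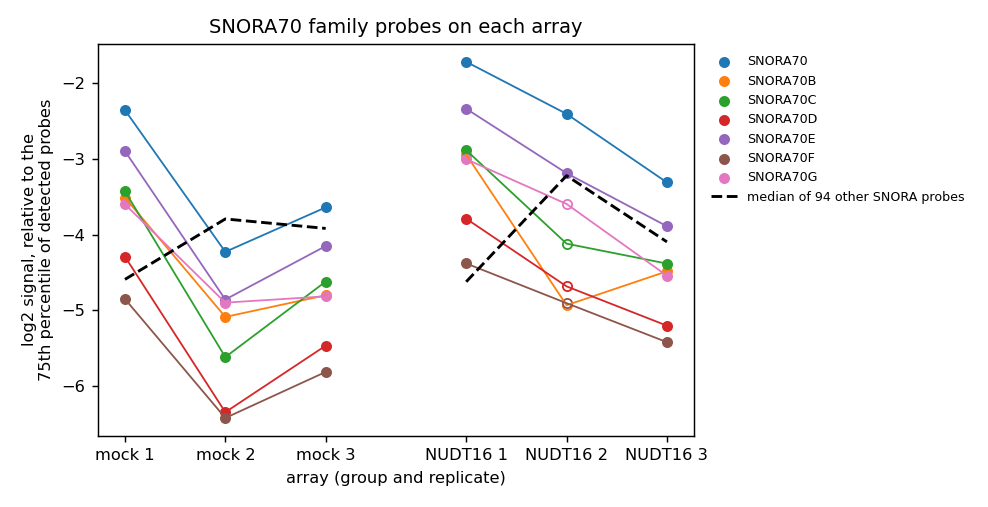
Log2 signal relative to the 75th percentile of detected probes (y axis) of the 7 SNORA70 family probes on each array (x axis), with the median of the 94 other tested SNORA probes as a dashed line; open symbols are not well above background. The family is highest on replicate 1 of each group, while the other SNORA probes have their highest median on replicate 2.

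Members that lie together in the genome were compared by locus, a group of probes with gaps under 20 kb. The loci and families below were picked after their values were seen. On chromosome 20 the locus of SNORA39, SNORA60 and SNORA71A to SNORA71D (37053843 to 37078841) had 8 tested probes, none of them for SNORA39. Their differences were 0.14 to 0.79, all above 0. Several of these probes are alike in sequence, so their values are not taken as independent. Over the best overlap, the SNORA71C RefSeq probe was 90.9% identical to that of SNORA71D and 84.5% to that of SNORA60. Of the 8 probes, 1 stayed above 0 with the median over all probes as the scale and 0 with no scaling. The 6 SNORA71 probes among them had a median of 0.45. By pair, the SNORA71 medians were -0.10, 1.37 and -0.04, and without NUDT16 replicate 2 only 2 of the 6 were above 0. That family's difference rested on pair 2.

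SNORA6 and SNORA62 lie together on chromosome 3 (39449956 to 39452698), both in RPSA, a ribosomal protein gene. SNORA62 read -3.58, -2.83 and -2.49 with mock and -4.16, -3.52 and -2.93 with NUDT16, a difference of -0.57 with a standard error of 0.62. Both were lower in 3 of 3 pairs, and under each alternative in which they were fitted. The RPSA probe itself had a difference of 0.19 with a standard error of 0.61.

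The EIF4A2 locus on chromosome 3 (186504582 to 186505538) holds SNORA4, SNORA63 and SNORA81. The differences were -1.23 for SNORA4, -0.12 for SNORA63 and -0.38 for SNORA81, and that of the host probe was -0.88 with a standard error of 0.63. SNORA4 was not well above background on NUDT16 replicate 2 while the other two were. In pair 2 SNORA4 was at -2.23, SNORA63 at 0.21 and SNORA81 at 0.13. Without NUDT16 replicate 1 and without mock replicate 3, 2 of the 3 members were above 0. With normexp, quantile normalization or the authors' deposited values, and without mock replicate 2, it was 1 of the 3.

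The locus around TAF1D on chromosome 11 (93454973 to 93466691) holds SNORA1, SNORA8, SNORA18, SNORA25, SNORA32 and SCARNA9. Their differences ran from -0.83 for SNORA8 to 0.10 for SNORA25, 5 below 0 and 1 above. The TAF1D probe was at -0.93 with a standard error of 0.78. TAF1D is the listed host of the SNORAs, which map to the minus strand. SCARNA9 maps to the plus strand and was given no host. With normexp background correction 4 of the 6 were above 0.

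Members were set beside their host genes, from a written list, in 57 pairs over 41 hosts, where both had a tested probe and lay within 200000 bases. The signs of the differences were the same in 29 of the 57. The median difference was 0.017 for members and -0.20 for hosts. SNORA54 (1.07) stood beside NAP1L4 (-0.45), SNORA27 (0.96) beside RPL21 (-0.30), SNORA28 (0.88) beside EIF5 (-0.32) and SNORA70 (0.93) beside RPL10 (0.34). SNORA33 (-1.18) stood beside RPS12 (0.03). All of these hosts had an adjusted p of 0.999 (limma), and no difference between member and host was tested.

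**Figure D4:**
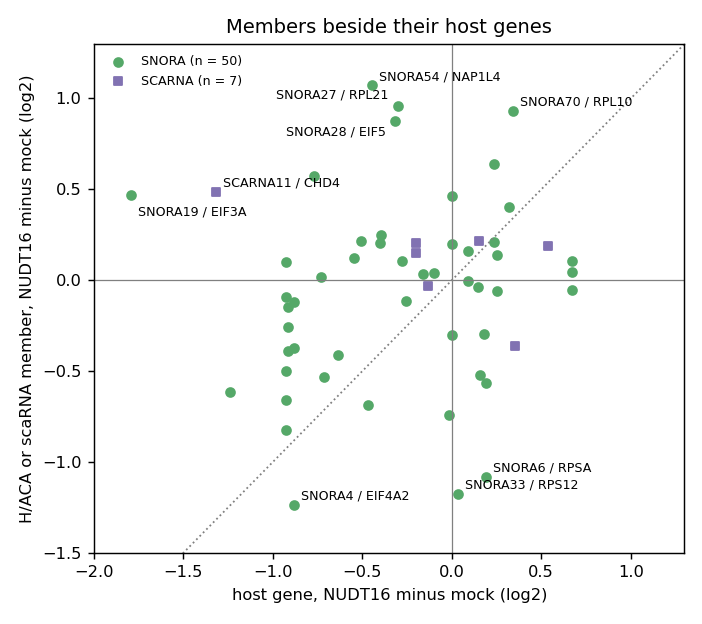
Difference, NUDT16 minus mock on the log2 scale, of each member (y axis) against that of its host gene's probe (x axis), 50 SNORA and 7 SCARNA probes; the dotted line marks equal differences. Members of one host share an x value, the points lie on both sides of 0 on each axis, and 29 of the 57 have the same sign on both.

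Among SCARNAs, SCARNA17 and SCARNA2 guide methylation of spliceosomal RNAs. SCARNA17 read 1.46, 4.15 and 2.61 with mock and 1.42, 4.39 and 3.00 with NUDT16. Replicate 2 was the high array of both groups, replicate 1 the low one, and the groups overlapped. The difference was 0.20 with a standard error of 0.87. SCARNA2 read -2.02, 0.73 and -1.22 with mock and -2.12, 1.74 and -1.72 with NUDT16. Its order of arrays was the same, and its difference was 0.14 with a standard error of 1.02.

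SCARNA9 and SCARNA7, of the C/D kind too, were below 0 in pair 2. SCARNA9 read 0.31, 2.31 and 0.98 with mock and 0.84, 0.36 and 1.57 with NUDT16. NUDT16 replicates 1 and 3 were above their mock partners and replicate 2 was below its own. The difference was -0.28 with a standard error of 0.68, and with replicates 1 and 3 alone it was 0.56. SCARNA7 read -4.35, -2.60 and -3.93 with mock and -4.08, -3.29 and -3.61 with NUDT16, with the same signs by pair and a difference of -0.03. All 4 SCARNAs of the C/D kind were well above background on all 6 arrays, with a median difference of 0.05.

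The 4 SCARNAs that join both folds, SCARNA5, SCARNA6, SCARNA10 and SCARNA12, had differences of 0.15, 0.21, 0.22 and 0.19, all of them below 0 with the median over all probes as the scale or with no scaling. Without NUDT16 replicate 2 all 4 were below 0, with a median of -0.42. SCARNA12, in the prohibitin gene PHB2, read -2.83, -2.11 and -3.46 with mock and -2.67, -1.30 and -3.87 with NUDT16. Its pairs differed by 0.16, 0.81 and -0.41, with both signs among them.

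SCARNAs listed as of the H/ACA fold had 12 of 17 probes tested, with 3 differences above 0, 9 below and a median of -0.17. Both SCARNA16 probes, identical in sequence, are among the 9. Of the 12 tested probes, 5 were well above background on all 6 arrays. SCARNA3 and SCARNA9L were assigned to no fold and are in none of these counts by fold. SCARNA22 was the only tested SCARNA higher in 3 of 3 pairs. It read 1.07, 1.81 and 0.12 with mock and 1.35, 2.64 and 0.57 with NUDT16. The groups overlapped, and the difference was 0.52 with a standard error of 0.72 (limma, adjusted p = 0.999). SCARNA13, in the small RNA host gene SNHG10, read -1.64, -1.04 and -1.47 with mock and -2.20, -0.999 and -2.03 with NUDT16. NUDT16 replicates 1 and 3 were below all mock arrays, and the difference was -0.36 with a standard error of 0.61.

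Lower in 3 of 3 pairs were SCARNA3 (-0.27), SCARNA23 (-0.71) and the EST or cDNA probe of SCARNA15 (-1.19). The last read -6.86, -3.46 and -2.99 with mock and -7.76, -5.49 and -3.64 with NUDT16, well above background only on replicate 3 of the latter. Its standard error was 1.13, and with normexp its difference was 0.09. The RefSeq probe of SCARNA15 lies 758 bases away, was well above background on 1 array and was not tested.

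SCARNA16, also of the H/ACA fold, had differences of -0.52 and -0.53 for its 2 probes. The other H/ACA SCARNAs had differences of 0.49 for SCARNA11, 0.03 for SCARNA14, -0.03 for SCARNA8 and SCARNA20, -0.14 for SCARNA4 and -0.19 for SCARNA18. SCARNA11 had its difference in pair 2 (1.48), with -0.09 and 0.06 in pairs 1 and 3. SCARNA9L, a copy related to SCARNA9, was at -0.23. SCARNA1 had 1 probe, well above background on 1 array of each group, and was not tested.

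**Figure D5:**
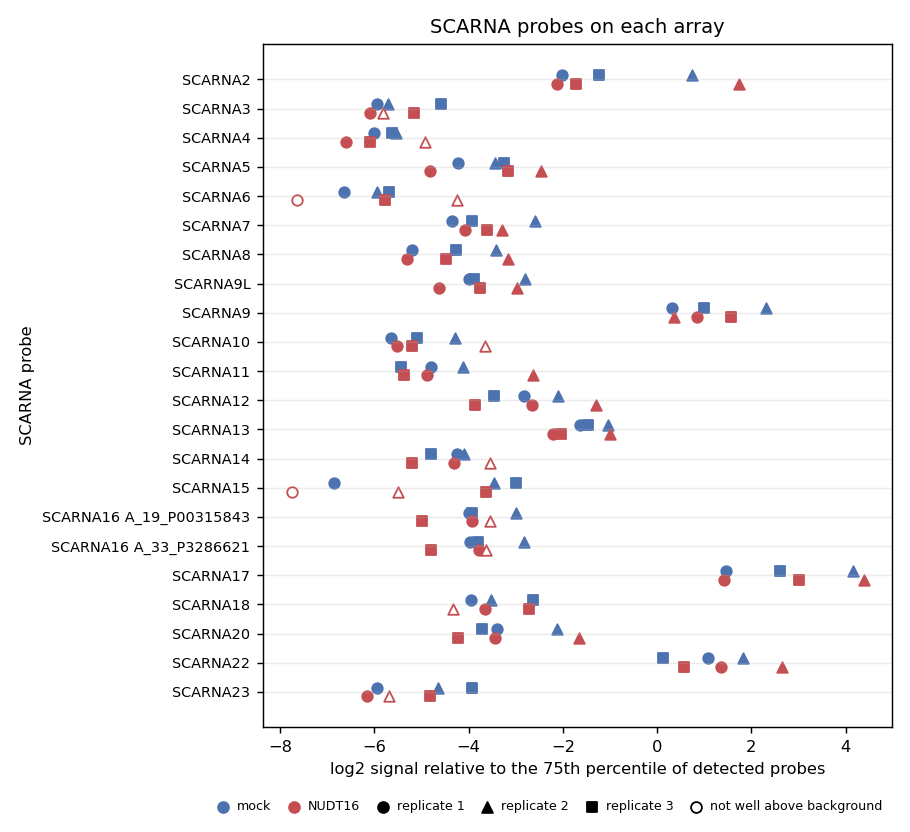
Log2 signal relative to the 75th percentile of detected probes (x axis) of each of the 22 tested SCARNA probes (y axis) on the 6 arrays, by group (colour) and replicate (shape); open symbols are not well above background. Colours are mixed in each row, and replicate 2 (triangles) is the rightmost of both groups in most rows, SCARNA2, SCARNA17 and SCARNA22 among them.

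Some genes had more than 1 tested probe. SCARNA16 has 2 probes of identical sequence, with differences of -0.52 and -0.53 and a largest gap of 0.20 on any array. SNORA36A has 2 probes that share 59 bases, with differences of -0.15 and -0.39. SNORA2A has a pair that shares 37 bases in the same sense, with differences of -0.36 and 0.18. Of the 9 genes with 2 tested probes, 8 had differences of one sign and SNORA2A did not. These pairs are no measure of technical agreement in all 9. The EST or cDNA probes of SNORA33 and SNORA75 map to the opposite strand, and that of SNORA26 has the opposite sense. Those of SNORA60, SNORA71A and SNORA71C start 694, 1034 and 114 bases from their RefSeq probes. They share runs of only 5, 6 and 6 bases in the same sense with them, and the matched transcripts are 136 to 138 bases long. The other pairs were those of SNORA71A (0.49 and 0.62), SNORA71C (0.30 and 0.16), SNORA75 (-0.61 and -0.57), SNORA60 (0.14 and 0.79), SNORA33 (-1.18 and -0.27) and SNORA26 (-0.27 and -0.54).

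The protein genes of the H/ACA pathway were measured on the same arrays through their capped mRNAs. Of 24 listed genes 22 were tested, WRAP53 and PAPD5 were not, and limma called 0 in either direction, with 0 at an unadjusted p under 0.05 and 0 called with the block. With the block 5 genes had an unadjusted p under 0.05, all lower (DKC1, NAF1, SHQ1, NOLC1 and TGS1), against 8.94% of all tested probes lower. NAF1, SHQ1 and TGS1 were not well above background on NUDT16 replicate 2. Of the 22 differences 3 were above 0 and 19 below, with a median of -0.60, against -0.11 over all tested probes. Without NUDT16 replicate 2 the median was -0.28 with 5 above 0, with normexp 13 of 22 were above 0, and with the median over all probes as the scale or with no scaling 0 were. Of the 8 genes well above background on all 6 arrays, 3 were above 0 and 5 below. That set leaves out genes low on NUDT16 replicate 2.

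Core and assembly proteins included DKC1, the pseudouridine synthase. It read -0.44, -0.45 and 0.57 with mock and -1.47, -1.77 and 0.16 with NUDT16. Replicates 1 and 2 of NUDT16 were below all mock arrays and replicate 3 was not. The difference was -0.92 with a standard error of 0.69 (limma, adjusted p = 0.999). NAF1, an assembly factor, was at -1.19 with a standard error of 0.84, and NOP10, a core protein, at 0.44 with one of 0.67.

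The 8 tested genes of the Cajal body and of cap hypermethylation were all below 0, from -1.25 to -0.28. NOLC1, a chaperone that binds H/ACA particles, was at -1.25 with a standard error of 0.82. TGS1, which hypermethylates caps, was at -0.90 with a standard error of 0.73. The 6 tested genes of 3' end trimming were also below 0, from -0.87 to -0.10. Among the tested genes of both roles, only SMN1, NOLC1 and EXOSC10 were well above background on NUDT16 replicate 2. PARN, a nuclease that trims H/ACA RNAs, was at -0.87 with a standard error of 0.75, and ZCCHC8, a part of the nuclear exosome targeting complex, at -0.72 with one of 0.66.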

How the data were processed

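Each sample's scanner file, made with Agilent Feature Extraction 10.7.3.1 per the file headers, holds deposited intensities in 1 colour. The processed signal had been background-corrected by the authors' scanner software, which replaces signals near background with surrogate values. A deposited table of log2 values made by the authors served only as an alternative. The submitters' processing notes also name limma.

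Control and outlier spots were left out and spots of one probe averaged, which left 50586 probes. Log2 signals were scaled by each array's 75th percentile over probes well above background on all 6 arrays. The percentile over all probes was an alternative, since on NUDT16 replicate 2 it is a background value. Probes that either group had well above background on each of its 3 arrays were fitted with limma 3.58.1 (R 4.3.3, lmFit and eBayes), 3 mock against 3 NUDT16, with Benjamini-Hochberg adjustment at 0.05 over 17765 probes. For single probes a two-sided exact permutation test was added. The fit was tested on simulated data.

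Deviations of arrays with one replicate number correlated at 0.84, 0.39 and 0.77 over the tested probes. Each number has its own slide, so the numbers pair the arrays, and all arrays have 1 scan day. Members, gene lists and tests were chosen with earlier results of these data known. Named were all tested SCARNA probes, the 6 SNORA probes with the smallest p in each direction, up to 12 detected on all arrays, genes with 2 tested probes, and 2 pathway genes per role. Other names were chosen after their values were seen. The number of arrays limits the precision.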

Additional observations from a re-analysis of the deposited data

How the results depend on the processing

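Each result was recomputed under 19 alternatives, 6 of which left out 1 array, and 18 of them called 0 members. With replicates 1 and 3 alone and the block, limma called 1 member and 613 of all probes. Over all probes it called 0 in place of 1 with no scaling, with normexp, in the authors' deposited values, without a filter and with a filter on all 6 arrays. Leaving out 1 array gave 0 (mock replicate 2) to 1 called probes. The median difference of SNORA probes was -0.59 when scaled by the median over all probes and -0.91 with no scaling, and that of SCARNA probes -0.71 and -1.03. Those 2 scalings move all tested probes to medians of -0.78 and -1.10. Leaving out 1 array gave -0.48 (NUDT16 replicate 2) to 0.38 for SNORA and -0.57 (NUDT16 replicate 2) to 0.26 for SCARNA. The medians of all tested probes with 1 array left out are not given here. The pathway genes gave 0 calls under all 19. The replicate block changed no call. Of 1131 values of named member probes, 945 kept their sign and side of the threshold, 185 that were never called changed sign and 1 became called. The cause of these changes was not tested. Low signal limits what NUDT16 replicate 2 can show: 82 of the 123 tested members had a mock mean below the lowest signal well above background there.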

Other observations

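Values of 3 SNORA members not yet described by array follow, SNORA21, SNORA16A and SNORA12, chosen after they were seen. SNORA21, in the gene of ribosomal protein L23, read 0.33, 3.50 and 1.19 with mock and 0.10, 4.31 and 0.91 with NUDT16. Replicate 2 was far above the others in both groups, and the difference was 0.10 with a standard error of 1.08. SNORA16A, in the small RNA host gene SNHG12, read 1.86, 2.57 and 0.75 with mock and 2.49, 3.04 and 1.03 with NUDT16. Each NUDT16 array was above its mock partner, the groups overlapped, and the difference was 0.46 with a standard error of 0.73. Its relative SNORA16B, whose probe is 86.7% identical over 60 bases, had a difference of 0.46 as well. SNORA12 read -2.10, -2.27 and -4.48 with mock and -1.98, -1.34 and -3.82 with NUDT16, low on replicate 3 of both groups.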
